A study of Homo sapiens with 6 samples.

Results

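The 10 genes described here encode enzymes of de novo purine and pyrimidine synthesis, the routes by which a cell builds nucleotides from simple precursors. They are PPAT, GART, PFAS, PAICS, ATIC and IMPDH2 for purines, and CAD, DHODH, UMPS and CTPS1 for pyrimidines. They were chosen by gene symbol, with earlier results of these data known, and they are 10 of the 58735 genes in the expression table. Purines are assembled step by step on activated ribose phosphate, which is made by the PRPS enzymes. The product, inosine monophosphate, is then turned into adenine or guanine nucleotides. The pyrimidine ring is made first from glutamine, aspartate and bicarbonate and receives its ribose phosphate afterwards. Dividing tumor cells lean on both routes, because DNA and RNA synthesis consume more nucleotides than salvage of free bases returns.

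RNA-seq was performed in PANC-1, a long-established line of human pancreatic ductal adenocarcinoma cells grown in DMEM with 10% serum. The 3 si-NC samples were transfected with control siRNA, and the 3 si-METTL16 samples with siRNA against METTL16, an m6A RNA methyltransferase. The methods call them biological triplicates, so p-values measure the spread between cultures of 1 line. The methods call this transfection stable and elsewhere describe short hairpin RNA against METTL16, so it is not clear whether the knockdown was transient. The labels give neither the siRNA sequence, nor whether it was 1 siRNA or a pool, nor the time after transfection.

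Counts summed to between 15725298 and 18054436 per sample, and 3 counts corresponded to 0.166 to 0.191 CPM (counts scaled to a common library size by TMM). METTL16 itself was 91.5, 96.7 and 101 CPM in the si-NC samples and 34.8, 33.9 and 34.9 CPM in the si-METTL16 samples, a log2 fold change of -1.48 ± 0.07 (SE, edgeR adjusted p = 8.34e-05). Of the 5 ductal markers, KRT8 and KRT18 were abundant, averaging 2139 and 1146 CPM in si-NC. KRT19 averaged 191 CPM there, while EPCAM and KRT7 were low at 7.75 and 6.55 CPM. The summed CPM of all 5 was between 2838 and 3904 in si-NC and between 3099 and 3389 in si-METTL16. KRT7 and KRT19 were lower in si-METTL16, with log2 fold changes of -0.84 and -1.40 (edgeR adjusted p = 0.0117 and 0.00111). The acinar, endocrine, leukocyte and endothelial marker lists each summed to at most 0.913 CPM in any sample, and CPA1, GCG and CD3E were at 0. Of the fibroblast markers, COL1A1 averaged 340 CPM in si-NC and 818 CPM after knockdown (log2 fold change 1.27, edgeR adjusted p = 9.39e-05), while DCN and LUM had 3 and 24 counts over all samples.

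All 10 genes passed the filter on low counts, and 7 of them were higher in si-METTL16: PPAT, GART, PFAS and PAICS of the purine route and CAD, UMPS and CTPS1 of the pyrimidine route. None was lower. ATIC, IMPDH2 and DHODH did not pass the test. The test was edgeR's quasi-likelihood test over 15089 genes with a Benjamini-Hochberg adjusted p under 0.05. Over all tested genes, 18.4% were called higher and 17.5% lower, against 70% and 0 of these 10. The 10 were chosen with earlier results of these data known, so the comparison of shares is a description and not a test. In the same 7 genes, every si-METTL16 value lay above every si-NC value, which held for 25.7% of all tested genes. The median log2 fold change was 0.40 over the 10 genes (range -0.10 to 1.06) and -0.0045 over all tested genes. The purine genes had a median of 0.37, with 4 of 6 called, and the pyrimidine genes a median of 0.56, with 3 of 4 called. RNA was measured in bulk, so a larger share of cells with high expression and more RNA per cell cannot be told apart.

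**Figure D1:**
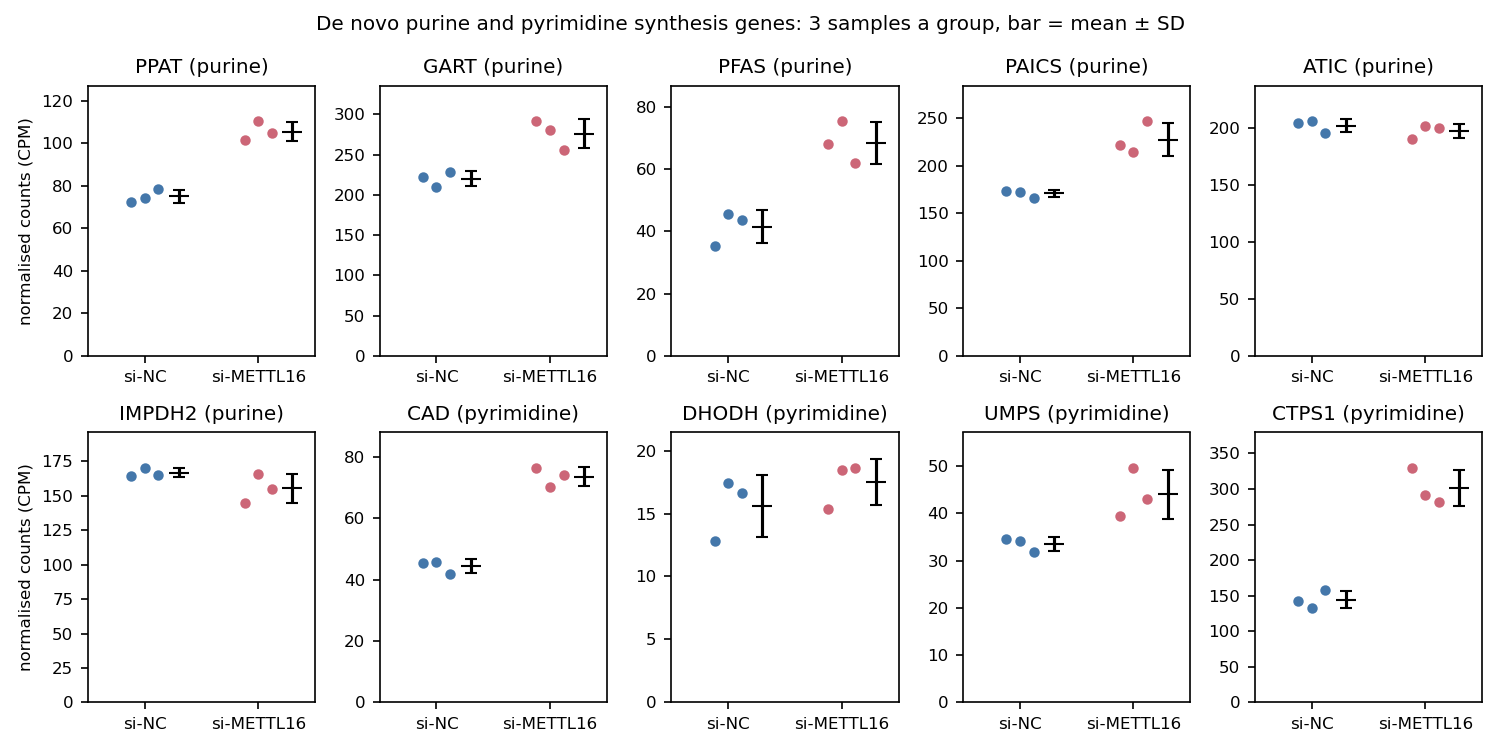
Normalised counts (CPM, linear axes from 0) of the 10 genes in each of the 3 si-NC and 3 si-METTL16 samples, with a bar for the mean ± SD. CTPS1 moved from 133 to 157 CPM up to 282 to 330 CPM, whereas the values of ATIC, IMPDH2 and DHODH overlapped between the groups.

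PPAT, the amidotransferase that commits ribose phosphate to purine synthesis, was 72.4, 74.1 and 78.7 CPM in si-NC and 101, 110 and 105 CPM after METTL16 knockdown. The groups did not overlap and were each tight. The rise was 1.41-fold (95% interval 1.26 to 1.57, log2 fold change 0.49 ± 0.07, SE, edgeR adjusted p = 0.00154). PPAT lies on chromosome 4 at 56393362 to 56435615, on the minus strand of GRCh38.

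PAICS, the bifunctional enzyme that carboxylates the imidazole ring and adds aspartate to it, lies head to head with PPAT at 56435741 to 56464579 on the plus strand. It was 174, 172 and 166 CPM in si-NC and 221, 214 and 247 CPM in the si-METTL16 samples. All si-METTL16 samples were above the highest si-NC sample. The rise was 1.33-fold (1.19 to 1.49, log2 fold change 0.41 ± 0.07, edgeR adjusted p = 0.00344). Both genes have pseudogene copies that the counting could have split reads with: 2 copies of PPAT held 97 counts beside 9128 for the gene, and 7 copies of PAICS held 333 beside 20179.

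The 125 bases between the annotated ends of PPAT and PAICS are shown because both genes are transcribed outwards from it and both rose. The sequence comes from RefSeq (plus strand of GRCh38.p14), has 76.0% G and C, and has 3 GC boxes (GGGCGG), which are in capitals.
PPAT-PAICS, chr4:56435616-56435740: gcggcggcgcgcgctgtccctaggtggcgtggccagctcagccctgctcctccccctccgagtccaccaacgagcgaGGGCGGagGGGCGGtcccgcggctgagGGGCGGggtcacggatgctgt

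GART, a trifunctional enzyme that catalyses several steps of the purine ring, was 222, 210 and 228 CPM in si-NC and 292, 280 and 256 CPM after METTL16 knockdown. The groups did not overlap, and si-METTL16 replicate 3 was the lowest of its group. The rise was 1.25-fold (1.13 to 1.40, log2 fold change 0.33 ± 0.07, edgeR adjusted p = 0.00849). GART lies on chromosome 21 at 33503931 to 33543491 on the minus strand and shares 874 bases with SON on the other strand. The use of strand in counting is not stated, so reads in the overlap could belong to either gene. SON held 25374 counts, about as many as GART with 25074, and its own log2 fold change was 0.33 ± 0.14 (edgeR adjusted p = 0.11), with groups that overlapped. Without si-NC replicate 2, SON passed the threshold (0.48 on the log2 scale, edgeR adjusted p = 0.0257).

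PFAS, the synthase that transfers an amide nitrogen from glutamine in the middle of the purine route, had the largest rise of the 6 purine genes. It was 35.4, 45.5 and 43.7 CPM in si-NC and 68.0, 75.4 and 61.9 CPM in the si-METTL16 samples. The groups did not overlap, and si-NC replicate 1 was the lowest sample. The rise was 1.65-fold (1.35 to 2.01, log2 fold change 0.72 ± 0.12, edgeR adjusted p = 0.0038). PFAS lies on chromosome 17 at 8247618 to 8270491 on the plus strand and shares 478 bases with CTC1 on the minus strand. CTC1 had 2937 counts and a negative log2 fold change of -0.30 (edgeR adjusted p = 0.036), a call kept in 7 of 15 other fits at that threshold. That adjusted p was 0.0951 and 0.0892 without si-NC replicates 1 and 3, and 0.106 and 0.0911 without si-METTL16 replicates 2 and 3.

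ATIC, which closes the purine ring to give inosine monophosphate, was 205, 206 and 196 CPM in si-NC and 190, 202 and 200 CPM after METTL16 knockdown. The samples of the groups were interleaved. The fold was 0.976 (0.895 to 1.07, log2 fold change -0.03 ± 0.05, edgeR adjusted p = 0.648). Its interval ended below the lower bound of each of the 7 genes that rose. ATIC lies on chromosome 2 at 215311817 to 215349773.

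IMPDH2, the dehydrogenase that sends inosine monophosphate towards guanine nucleotides, was 165, 170 and 165 CPM in si-NC and 145, 166 and 155 CPM in the si-METTL16 samples. One si-METTL16 sample lay within the si-NC values and the others below them. The fold was 0.931 (0.839 to 1.03, log2 fold change -0.10 ± 0.06, edgeR adjusted p = 0.254). IMPDH2 lies on chromosome 3 at 49024325 to 49029408 on the minus strand.

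CAD, the trifunctional protein of the first pyrimidine steps and the point at which the route is controlled, was 45.6, 45.9 and 41.8 CPM in si-NC. In si-METTL16 it was 76.5, 70.4 and 74.0 CPM. The gap between the groups was several times the spread within them. The rise was 1.66-fold (1.47 to 1.87, log2 fold change 0.73 ± 0.07, edgeR adjusted p = 0.000504). CAD lies on chromosome 2 at 27217390 to 27243943.

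DHODH, the mitochondrial enzyme that oxidises dihydroorotate to orotate, was the lowest of the 10, with 12.8, 17.4 and 16.6 CPM in si-NC and 15.4, 18.5 and 18.6 CPM after METTL16 knockdown. The lowest si-METTL16 sample was below the highest si-NC samples. The fold was 1.12 (0.879 to 1.43, log2 fold change 0.16 ± 0.15, edgeR adjusted p = 0.428). It rested on 216 to 335 counts per sample. The upper bound of its interval lies above the fold of PPAT, so a rise of that size lies within its error. DHODH lies on chromosome 16 at 72008588 to 72027664.

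UMPS, the bifunctional enzyme that joins orotate to ribose phosphate and makes uridine monophosphate, was 34.6, 34.2 and 31.9 CPM in si-NC and 39.5, 49.7 and 43.1 CPM in the si-METTL16 samples. The groups did not overlap, but the si-METTL16 samples were spread widely. The rise was 1.31-fold (1.11 to 1.55, log2 fold change 0.39 ± 0.10, edgeR adjusted p = 0.0229), the least firm of the 7. With 1 sample left out, UMPS stayed under the threshold only without si-METTL16 replicate 1. The edgeR adjusted p was 0.05001, 0.05551 and 0.07676 without si-NC replicate 1, 2 and 3, and 0.06102 and 0.05007 without si-METTL16 replicate 2 and 3. UMPS lies on chromosome 3 at 124730366 to 124749273.

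CTPS1, which aminates uridine triphosphate to cytidine triphosphate, had the largest rise of the 10 genes. It was 143, 133 and 157 CPM in si-NC and 330, 292 and 282 CPM after METTL16 knockdown. Every si-METTL16 sample was far above every si-NC sample. The rise was 2.09-fold (1.81 to 2.41, log2 fold change 1.06 ± 0.09, edgeR adjusted p = 0.000257). CTPS1 lies on chromosome 1 at 40979335 to 41012565.

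**Figure D2:**
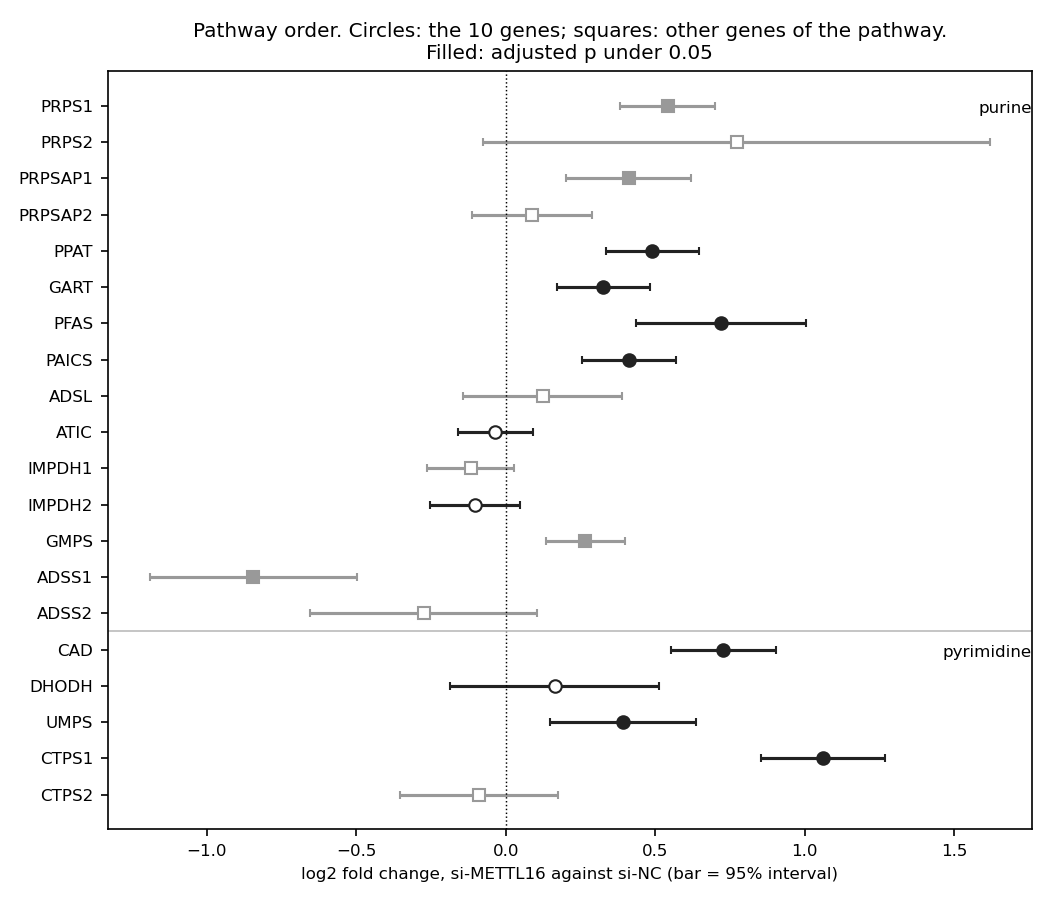
Log2 fold changes of si-METTL16 against si-NC with 95% intervals (horizontal axis), in the order of the pathway from top to bottom, for the 10 genes (circles) and the other enzymes and subunits of de novo synthesis (squares). Filled symbols passed an adjusted p of 0.05. The filled circles run from GART at 0.33 to CTPS1 at 1.06, and ATIC, IMPDH2 and DHODH are open.

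The other enzymes and subunits of de novo synthesis were followed as a list of 10 genes, of which 3 were called higher and 1 lower (median log2 fold change 0.11). Of all tested genes, 18.4% were called higher and 17.5% lower, so genes called in either direction are common in these data. PRPS1, which makes the activated ribose phosphate, rose from 189 ± 14.5 to 275 ± 2.54 CPM (mean ± SD, n = 3, log2 fold change 0.54, edgeR adjusted p = 0.00109). Its regulatory subunit PRPSAP1 rose by a log2 fold change of 0.41 (edgeR adjusted p = 0.0108). GMPS, which makes guanosine monophosphate after the IMPDH step, rose from 174 ± 3.79 to 209 ± 8.94 CPM (log2 fold change 0.27, edgeR adjusted p = 0.00957). ADSS1, one of the enzymes on the way to adenosine monophosphate, was low throughout and fell from 8.01 to 4.45 CPM (log2 fold change -0.84, edgeR adjusted p = 0.00454).

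PRPS2, PRPSAP2, ADSL, IMPDH1, ADSS2 and CTPS2 did not pass the test. ADSL, which acts both before ATIC and on the adenine branch, had a log2 fold change of 0.12 (95% interval -0.14 to 0.39). PRPS2 had a log2 fold change of 0.77 with an interval of -0.07 to 1.62, and 1 sample of each group stood apart from the other two. Leaving out si-NC replicate 3 took it past the threshold (1.17 on the log2 scale, edgeR adjusted p = 0.04368), as did leaving out si-METTL16 replicate 1 (1.04, edgeR adjusted p = 0.04743).

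CTPS1 and CTPS2 encode enzymes of the same reaction, and their counts were compared within each sample, where the scaling of libraries drops out. The ratio of CTPS1 to CTPS2 was 8.74, 8.17 and 9.78 in si-NC and 19.2, 19.6 and 20.5 in si-METTL16. The ratios of the groups did not overlap, with geometric means of 8.87 and 19.8. The log2 ratio differed by 1.16, with an exact two-sided permutation p of 0.1 (0.4 after Benjamini-Hochberg adjustment over 4 ratios), and 0.1 is the smallest p that 3 against 3 samples can give. CTPS2 itself was 16.2 ± 0.127 CPM in the control samples and 15.3 ± 1.76 CPM in si-METTL16, a log2 fold change of -0.09 (-0.35 to 0.18, edgeR adjusted p = 0.575).

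The ratio of IMPDH2 to IMPDH1 had geometric means of 1.84 in si-NC and 1.86 in si-METTL16 (exact permutation p = 0.9), and the log2 difference of 0.01 was smaller than the spread in either group. The ratio of PRPS1 to PRPS2 had means of 9.53 and 8.13 (exact permutation p = 0.9), with samples from 6.29 to 13.2. The ratio of the divergent neighbours PAICS and PPAT had means of 2.28 and 2.15 (exact permutation p = 0.6). In these ratios the groups overlapped, and each adjusted p was 0.9.

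**Figure D3:**
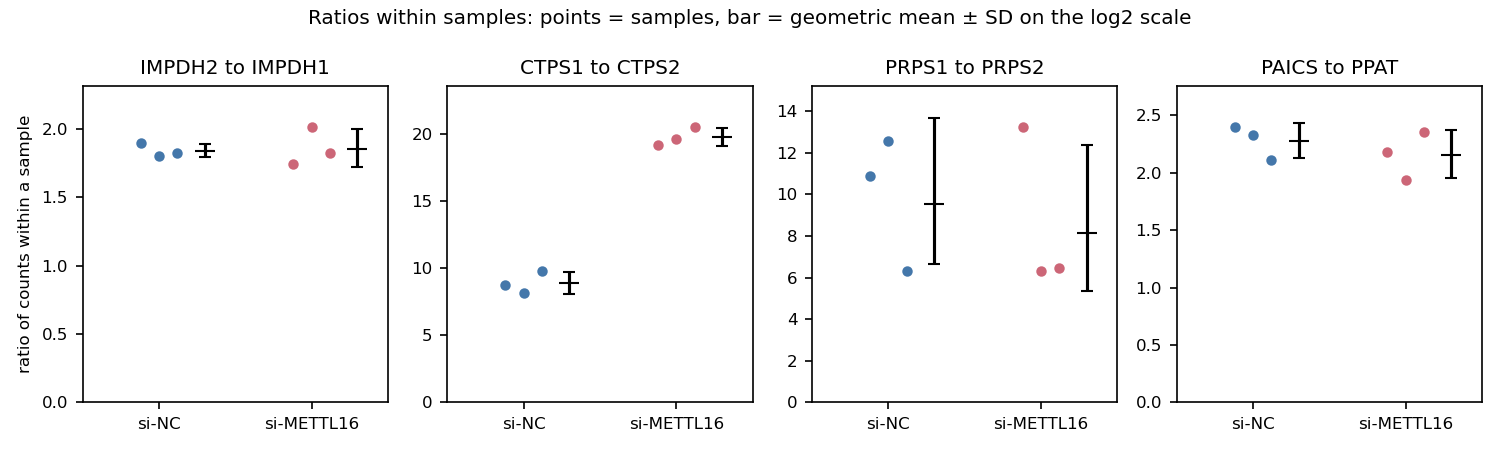
Ratio of the counts of 2 genes within each sample (vertical axes, linear from 0) for 4 pairs, with points for the 3 samples of each group and bars for the geometric mean ± SD on the log2 scale. The ratio of CTPS1 to CTPS2 lies between 8.17 and 9.78 in si-NC and between 19.2 and 20.5 in si-METTL16, and the other ratios overlap between the groups.

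In the lists of supply routes some genes were called in each direction, as were 18.4% (higher) and 17.5% (lower) of all tested genes. Of 8 tested folate one-carbon enzymes, which supply formyl groups to GART and ATIC, only MTHFD1 was called. It rose from 87.6 ± 4.09 to 147 ± 5.64 CPM (log2 fold change 0.75, edgeR adjusted p = 0.000283). Mitochondrial MTHFD2 had a log2 fold change of -0.44 (edgeR adjusted p = 0.142), and its groups overlapped. Without si-NC replicate 2 it passed the threshold (-0.65 on the log2 scale, edgeR adjusted p = 0.0097). Of 8 genes of glutamine and aspartate supply, 3 were higher and 1 was lower. CPS1, the mitochondrial carbamoyl phosphate synthetase related to a part of CAD, rose by a log2 fold change of 0.47 (edgeR adjusted p = 0.00336). GLUL, which makes glutamine, was the gene called lower, at -0.89 (edgeR adjusted p = 0.0153). The edgeR adjusted p was 0.05948 without si-NC replicate 3 and 0.05313 without si-METTL16 replicate 1.

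The pentose phosphate pathway, the source of ribose phosphate, had 1 of 7 genes higher and 3 lower. RPIA, which makes ribose 5-phosphate, had a log2 fold change of 0.39 (edgeR adjusted p = 0.0198), with 0.05989 without si-NC replicate 1 and 0.06187 without si-METTL16 replicate 1. PGLS, the lactonase of the pathway, was lower at -0.66 (edgeR adjusted p = 0.0119). The summed CPM of the 7 genes was 1372 to 1497 in si-NC and 1110 to 1173 in si-METTL16. Over these pathway lists and those of kinases, salvage and breakdown described further on, 57 genes in all, 12 were higher and 8 lower. ALDH1L1, XDH, DPYS and UPB1 among them were not tested. Of all tested genes, 18.4% were called higher and 17.5% lower, so these counts are no trait particular to the lists.

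Levels were compared between genes per length on 2 scales. The first was the deposited FPKM (fragments per kilobase per unit of library size). The lengths implied by counts, library totals and FPKM were longer than the union of GENCODE v44 exons for all 10 genes. For IMPDH2 the implied length was 7264 bases, beyond the 5084 bases of the whole gene, so FPKM may not be a plain level per length. Those lengths were 1.60 times the MANE Select transcript, the agreed reference transcript of a gene, for CAD and 8.61 times for CTPS1. By deposited FPKM in si-NC, ATIC was highest at 28.5 ± 0.742, followed by IMPDH2 at 23.1, GART at 19.3, PAICS at 13.2, PPAT at 8.65, CTPS1 at 5.94, PFAS at 3.89, CAD at 3.84, UMPS at 3.02 and DHODH at 1.56. Of neighbours in that order, only PFAS and CAD overlapped in their samples. The second scale was CPM per kilobase of MANE Select transcript, here taken from library totals without TMM scaling. On that scale in si-NC, ATIC at 103 and IMPDH2 at 102 overlapped at the top, and CTPS1 followed GART at 51.1.

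In si-METTL16, CTPS1 reached 105 ± 8.31 CPM per kilobase, overlapping ATIC at 99.3, among the highest values of the 10 on that scale. This rank depends on the length used: the MANE Select transcript of CTPS1 has 2840 bases, and the union of its GENCODE v44 exons 11958. By deposited FPKM CTPS1 reached 12.2 and overlapped PPAT, which ranged from 11.5 to 12.5. GART at 23.8 FPKM and IMPDH2 at 21.2 FPKM overlapped in si-METTL16 but not in si-NC. UMPS and DHODH stayed at the bottom on both scales, at 3.90 and 1.72 FPKM in si-METTL16.

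**Figure D4:**
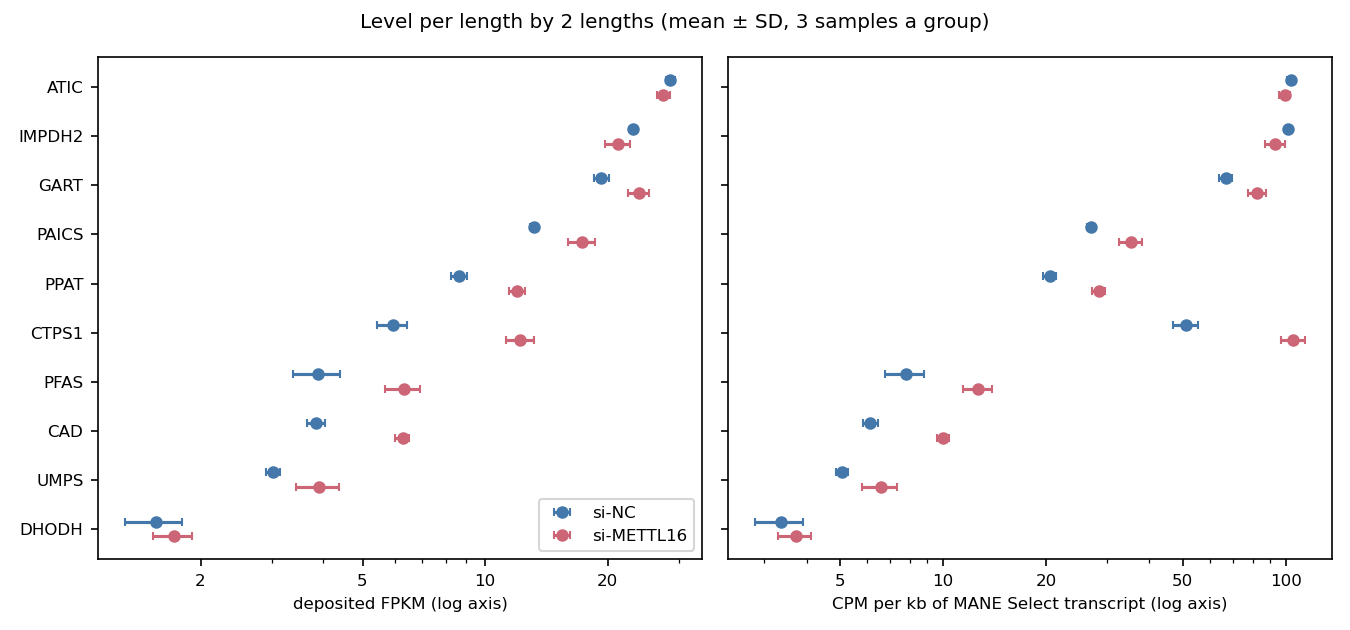
Level per length of the 10 genes in si-NC and si-METTL16 (mean ± SD of 3 samples, log axes), as deposited FPKM on the left and as CPM per kilobase of MANE Select transcript on the right, ordered by FPKM in si-NC. CTPS1 lies at 5.94 FPKM but 51.1 CPM per kilobase in si-NC, the widest shift between the scales.

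Most of the listed genes of proliferation and MYC, a transcription factor known to activate nucleotide synthesis genes, were also called higher in si-METTL16. Of 12 proliferation genes 11 were called higher and 0 lower, against 18.4% and 17.5% of all tested genes. Their summed CPM was 1076 to 1231 in si-NC and 2391 to 2626 in si-METTL16. The largest change was in RRM2, the ribonucleotide reductase subunit that makes deoxyribonucleotides, at a log2 fold change of 2.71 (edgeR adjusted p = 0.000243). MYC was 8.34, 21.0 and 4.62 CPM in si-NC and 82.5, 72.4 and 56.2 CPM in the si-METTL16 samples (log2 fold change 2.64 ± 0.49, edgeR adjusted p = 0.00607). ATF4, a factor of the amino acid response, had a log2 fold change of 0.09 (edgeR adjusted p = 0.457). The part of proliferation or MYC in the result was not tested.

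The RefSeq promoter windows of GRCh38.p14, from 250 bases before to 50 after each start, held 14 windows for 9 of the 10 genes, and IMPDH2 had no entry. The E-box CACGTG was found in 4 of the 14 windows, which belong to PPAT, PAICS, ATIC and DHODH, and 7.26% of all 35116 windows hold it. Of these, PPAT and PAICS rose and ATIC and DHODH did not pass the test. The stretches are shown because they set the genes that rose beside those that did not, each read along its gene's strand with the E-box in capitals.
PPAT, chr4:56435780-56435809, minus strand: aacggagatttcCACGTGcagcaaatacag
PAICS, chr4:56435772-56435801, plus strand: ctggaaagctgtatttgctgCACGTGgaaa
ATIC, chr2:215312001-215312030, plus strand: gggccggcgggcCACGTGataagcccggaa
ATIC, chr2:215312076-215312105, plus strand: ctcctacctgcgCACGTGgtgccgccgctg
DHODH, chr16:72008573-72008602, plus strand: gccgctactgcgCACGTGcacccaaccaga

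The E-box of PPAT and that of PAICS are 1 site, at 56435792 to 56435797 on chromosome 4, read from opposite strands. The GC box GGGCGG, which GC-rich promoters often hold, was in 9 of the 14 windows, with at least 1 for each gene with an entry except UMPS, and in 44.95% of all windows. CCAAT was found in 5 of the 14, of GART, CAD and DHODH (34.61% of all windows), and an E2F site (TTTGGCGC, TTTCCCGC, TTTGCCGC or TTTCGCGC) in 1, of GART (3.31%). The C/EBP-ATF element TGATGNAA was found in none of the 14 (3.62%). All motifs were searched on both strands. The sequence UACAGAGAA, in which METTL16 is known to methylate an adenosine, was in 653 of 19061 MANE Select transcripts (3.43%) and in 0 of the 10.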

How the data were processed

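RNA-seq of 6 PANC-1 samples was used. Sample titles gave the groups and replicate numbers, although another label calls the controls wild type. The authors deposited raw counts per gene and FPKM values (each count over a gene length and the library total). The submitters' processing notes list HISAT2 2.0.4 and StringTie 1.3.0 on GRCh38 without a role. The counting program, annotation release and use of strand are not given in the sources used here. The table's coordinates equal those of GENCODE v44 for 4 of the 10 genes.

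After filterByExpr (minimum count 10, minimum total count 15) and TMM scaling, counts were compared by the quasi-likelihood test of edgeR 4.0.16 (R 4.3.3), with Benjamini-Hochberg adjustment over all 15089 tested genes and a threshold of 0.05. Standard errors and 95% intervals came from the same test. Log2 ratios of counts within samples were compared by exact two-sided permutation. Libraries of a group differed by at least 14.7 times the sampling noise (chi-square per degree of freedom), so none was counted as a repeat. Scripts were tested on simulated data. Precision was limited by 3 replicates a group, with a common biological coefficient of variation of 16.5%.

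Alternatives were a replicate block, leaving out each sample, no filter, a minimum of 10 counts in all samples, size factors of DESeq2 1.42.0 and its Wald test, limma 3.58.1 on voom values, on log2(FPKM + 1) with and without a minimum mean FPKM of 1 and on log2(FPKM + 0.1), and a threshold of 0.01. The 10 genes and the gene lists were chosen with earlier results of these data known. The naming rule took all 10 genes, METTL16 and, of each list, mainly the called genes with the highest and lowest change and paralogs of the 10. Some genes that the rule took are not reported here. PGLS, SON and CTC1 were added after their values were seen. Sequences were read with Python 3.11.15 from RefSeq promoter windows on GRCh38.p14, and transcripts from GENCODE v44.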

Additional observations from a re-analysis of the deposited data

How the results depend on the processing

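PPAT, GART, PFAS, PAICS, CAD and CTPS1 were called higher in all 15 alternative fits at the threshold of 0.05 and in the reported fit at 0.01, and ATIC, IMPDH2 and DHODH in none of these. UMPS was called in 9 of 15. Besides 5 of the fits with a sample left out, it was lost with limma on unfiltered log2(FPKM + 1) (adjusted p = 0.08482). The reported fit of UMPS does not pass a threshold of 0.01. The number of the 10 genes called higher was 6 to 7 with a sample left out, and 0 were called lower. Their median log2 fold change was 0.37 to 0.45 with a sample left out (0.45 without si-METTL16 replicate 1), 0.33 with limma on log2(FPKM + 1), filtered or not, and 0.37 on log2(FPKM + 0.1). At a threshold of 0.01, 3035 genes were called, and with a sample left out 4159 to 4526. Of the 57 other pathway genes, 7 were then higher and 4 lower at 0.01. With a sample left out 10 to 13 were higher and 5 to 8 lower (5 without si-NC replicate 3), and 5 were lower with limma on either log2 FPKM scale with the filter. GOT1 and TALDO1 each kept their call in 1 of 6 fits with a sample left out. The difference in the log2 ratio of IMPDH2 to IMPDH1, near 0 throughout, ran from -0.0466 to 0.0565 and turned negative without si-NC replicate 2 (-0.0025) and without si-METTL16 replicate 2 (-0.0466). The cause of these changes was not tested. The other scalings of counts moved the median of all genes to between -0.0129 and -0.004.

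Over all genes the replicate numbers paired the samples at most weakly: deviations of same-numbered samples correlated at 0.0253, 0.0371 and 0.0298. Each sample still correlated best with its own number, so an effect shared by same-numbered samples in some genes is not excluded. With the replicate number as a block, 5013 genes were called, the same 7 of the 10 genes were higher (UMPS adjusted p = 0.03913), their median was 0.40, and 12 other pathway genes were higher and 11 lower. RPIA was lost (adjusted p = 0.05422) and ADSS2 was called lower (0.04925). The block raised the SE of RPIA from 0.0997 to 0.115 and lowered that of ADSS2 from 0.162 to 0.0802.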

Other observations

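Enzymes that act after de novo synthesis or beside it were called in both directions, as were 18.4% (higher) and 17.5% (lower) of all tested genes. Of 5 nucleotide kinases, 2 were higher and 1 lower in si-METTL16. NME1, a nucleoside diphosphate kinase, had a log2 fold change of 0.30 (edgeR adjusted p = 0.00922). CMPK1, which phosphorylates uridine and cytidine monophosphate, had -0.25 (edgeR adjusted p = 0.00728).

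Salvage of bases and nucleosides had 1 of 8 genes higher and 1 lower. UPP1, which releases uracil from uridine, had a log2 fold change of 0.39 (edgeR adjusted p = 0.019), with adjusted p of 0.05468 without si-NC replicate 2 and 0.05984 and 0.05667 without si-METTL16 replicates 1 and 3. UCKL1, a uridine-cytidine kinase-like gene, was lower at -0.38 (edgeR adjusted p = 0.0159), with 0.05493 without si-NC replicate 3. HPRT1, the salvage enzyme of hypoxanthine and guanine, had a log2 fold change of 0.13 (edgeR adjusted p = 0.281).

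Of 7 tested genes of nucleotide breakdown, 1 was higher and 1 lower. ADA, which deaminates adenosine, rose from 24.7 ± 1.69 to 60.2 ± 2.09 CPM (log2 fold change 1.29, edgeR adjusted p = 0.000131), a larger change than that of CTPS1, although the difference between them was not tested. AMPD3, which deaminates adenosine monophosphate, fell from 14.3 ± 1.04 to 6.62 ± 1.37 CPM (log2 fold change -1.11, edgeR adjusted p = 0.00242). XDH, DPYS and UPB1 were not tested, with 1, 0 and 0 counts over all samples.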
